A study of Mus musculus with 6 samples.

Results

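The interleukin-1 receptor gene cluster comprises 6 genes, Il1r2, Il1r1, Il1rl2, Il1rl1, Il18r1 and Il18rap, which lie in this order on the + strand of mouse chromosome 1 (chr1:40074079-40551705 in mm10, 478 kb). A peak was a member if one of the 6 genes had the nearest transcription start site (TSS) and the distance was at most 100000 bp. This gave 138 of the 175929 peaks in the table, of which 12 belonged to Il1r2, 15 to Il1r1, 23 to Il1rl2, 44 to Il1rl1, 36 to Il18r1 and 8 to Il18rap. Of these, 33 lay within 3000 bp of a TSS (promoter-proximal) and 105 farther away (distal). Their widths ran from 202 to 1026 bp.

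The genes encode receptors of the interleukin-1 family. Il1r1, Il1rl1 (ST2), Il1rl2 and Il18r1 encode the chains that bind IL-1, IL-33, IL-36 and IL-18. Each of these chains pairs with an accessory chain, Il18rap for Il18r1 and Il1rap, encoded elsewhere, for the others, and the paired intracellular domains recruit MyD88 and the IRAK kinases, which leads to NF-kB activation. Il1r2 encodes a decoy that binds IL-1 and lacks the signalling domain. In blood cells, ST2 and the IL-18 receptor are known from mast cells, basophils, T cells, NK cells and innate lymphoid cells.

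ATAC-seq marks open chromatin by means of a transposase that cuts and tags exposed DNA, so that the number of tags in a peak reflects its accessibility. The cells were mouse leukaemia cells made with AE9a, a truncated AML1/ETO fusion protein, and marked by GFP. They carried 1 floxed allele of Usp18 and a tamoxifen-activated Cre, and were transplanted into recipient mice that received oil (Usp18+/f) or tamoxifen (heterozygous Usp18 deletion) once sick. Lin- c-Kit+ cells were sorted from the spleen 3 days after the first injection. Both groups carried AE9a, the floxed allele and Cre, and tamoxifen without the floxed allele was not analysed here, so the agent and the deletion cannot be told apart. Usp18 encodes a protease that removes ISG15 and restrains interferon signalling. There were 3 oil libraries (replicates 1, 2 and 4) and 3 tamoxifen libraries (replicates 1, 3 and 4). The study's methods give a number of mice that matches the libraries of each group, but a general statement there calls ATAC-seq duplicate, and the labels tie no library to a mouse, so n counts libraries and p-values measure the spread between libraries, which may be technical. In bulk libraries, more cells with an open site and a more open site per cell cannot be told apart.

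Depth was 57.4 to 74.7 M tags a library (M stands for 1000000), of which 17.5 to 21.1 M fell in peaks. Tags were divided by size factors to give normalised tags, and a peak passed at an adjusted p under 0.05 by DESeq2 over the whole table. None of the 15 peaks of Usp18 passed (0 at an unadjusted p under 0.05), and the peak at its TSS held 415 to 459 normalised tags after oil and 438 to 468 after tamoxifen. The exons removed are not given in the sources used here, so accessibility there is no check of the deletion. Tamoxifen replicate 4 stood apart from the other tamoxifen libraries. With all 6 libraries 2448 peaks of the table passed, and 6529 passed without it, so calls that change without this library are given beside the values. This library was singled out after the values had been seen. The fit without it rests on tamoxifen replicates 1 and 3 alone. Adjusted p-values from that fit are therefore descriptions and add no separate evidence of a difference.

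The sequences below, from the mm10 reference, belong to the 3 peaks that were higher and 2 of those that were lower after tamoxifen with the smallest p among the named peaks, and to the peak with the most tags per base, at the distal Il1rl1 start site. They show the stretches of DNA that the results turn on. For peaks over 300 bp the central 300 bases are given. Capitals mark matches on either strand to any of 8 motifs. The AP-1 motif was searched as TGANTCA, the motif of GATA factors as AGATAA and that of RUNX factors as TGTGGT. The motif of PU.1 was searched as GAGGAAGT, that of C/EBP as TTGCNNAA and that of STAT as TTCNNNGAA. The motif of NF-kB was searched as GGGNNTTCC and the interferon response element (ISRE) as GAAANNGAA. These NF-kB letters miss sites with a longer spacer, such as the unmarked ggggaacttcc in the Il18r1 intron 5 peak. The letters of STAT and NF-kB, and of STAT and ISRE, can overlap, but no matches overlapped in these 6 sequences.
Il18rap 13807 bp upstream, chr1:40501405-40501704, + strand: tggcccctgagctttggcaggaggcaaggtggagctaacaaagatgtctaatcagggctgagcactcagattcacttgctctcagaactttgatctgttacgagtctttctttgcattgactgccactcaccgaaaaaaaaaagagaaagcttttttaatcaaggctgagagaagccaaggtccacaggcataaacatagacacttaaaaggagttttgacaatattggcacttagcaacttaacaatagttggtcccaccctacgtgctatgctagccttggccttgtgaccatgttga
Il18r1 start site, chr1:40465519-40465731, + strand: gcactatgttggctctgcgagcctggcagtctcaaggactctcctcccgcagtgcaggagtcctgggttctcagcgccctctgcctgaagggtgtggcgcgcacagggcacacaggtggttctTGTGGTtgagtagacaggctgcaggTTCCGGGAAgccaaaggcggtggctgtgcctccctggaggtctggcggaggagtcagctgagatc
Il18r1 intron 5, chr1:40479486-40479757, + strand: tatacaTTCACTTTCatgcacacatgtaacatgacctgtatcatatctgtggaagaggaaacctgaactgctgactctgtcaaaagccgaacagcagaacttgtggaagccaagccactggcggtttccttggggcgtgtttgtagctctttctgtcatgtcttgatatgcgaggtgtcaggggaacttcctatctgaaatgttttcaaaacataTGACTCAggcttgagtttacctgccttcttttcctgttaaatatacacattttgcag
Il1rl2 intron 8, 27747 bp downstream, chr1:40352186-40352485, + strand: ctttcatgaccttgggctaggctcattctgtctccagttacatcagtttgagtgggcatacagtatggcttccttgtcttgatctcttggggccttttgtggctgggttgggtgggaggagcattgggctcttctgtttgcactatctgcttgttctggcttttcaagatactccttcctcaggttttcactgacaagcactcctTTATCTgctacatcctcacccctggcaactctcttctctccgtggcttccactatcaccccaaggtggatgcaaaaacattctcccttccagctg
Il1rl2 intron 8, 31062 bp downstream, chr1:40355514-40355788, + strand: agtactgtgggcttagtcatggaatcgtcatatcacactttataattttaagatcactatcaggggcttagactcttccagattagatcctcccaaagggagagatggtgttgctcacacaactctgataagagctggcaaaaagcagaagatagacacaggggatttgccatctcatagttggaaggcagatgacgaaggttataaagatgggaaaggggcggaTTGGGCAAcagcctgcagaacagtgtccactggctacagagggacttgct
Il1rl1 distal start site, chr1:40429359-40429612, + strand: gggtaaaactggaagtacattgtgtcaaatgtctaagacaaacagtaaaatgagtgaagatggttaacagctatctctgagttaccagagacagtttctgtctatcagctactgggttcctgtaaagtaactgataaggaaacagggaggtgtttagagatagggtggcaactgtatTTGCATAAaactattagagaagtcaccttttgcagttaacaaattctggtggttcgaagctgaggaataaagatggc
The Il18r1 intron 5 peak held an AP-1 match at base 216 and an ISRE match at base 7, and the Il18r1 start site peak held a RUNX match at base 124 and a STAT match at base 149. The peak upstream of Il18rap held none of the 8 motifs in these 300 bases. A match describes the letters and not a bound factor.

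To see whether accessibility at the receptor genes differed after tamoxifen, the 138 member peaks were read from the fit of all peaks. In the cluster 1 peak rose and 0 fell, or 0.725% of the members in the higher direction against 1.22% of all peaks, with 0.167% of all peaks lower. The same peak was the single member that also changed more than 2-fold, which 0.654% of all peaks did in either direction. At an unadjusted p under 0.05, 25 members were higher (18.1% against 6.18% of all peaks) and 1 was lower (0.725% against 2.84%). The groups did not overlap at 17 higher members (12.3% against 11.8%) and at 5 lower members (3.62% against 9.99%). By edgeR 5 members passed, all higher (3.62% against 2.40% of all peaks). The median log2 fold change was 0.20 over the members and -0.001 over all peaks. It was 0.50 over the Il18r1 peaks and 0.06 over the 102 peaks of the other 5 genes.

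Without tamoxifen replicate 4, 21 members were higher and 3 lower at an adjusted p under 0.05, which was 15.2% against 2.29% of all peaks, and 2.17% against 1.43%. Il18r1 held 16 of the 21 higher peaks, Il1r2 held 2, and Il1r1, Il1rl1 and Il18rap held 1 each. Some of the Il18r1 and Il1r2 peaks among them were in the tamoxifen peak list alone, so they entered the table only through that group. The 3 lower peaks comprised 2 of Il1rl2 and 1 of Il1rl1. Leaving out tamoxifen replicate 3 instead left 0 passing members, when 629 of 145231 peaks of the table passed. Leaving out any other library left 1, when 868 to 1078 peaks of the table passed.

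**Figure D1:**
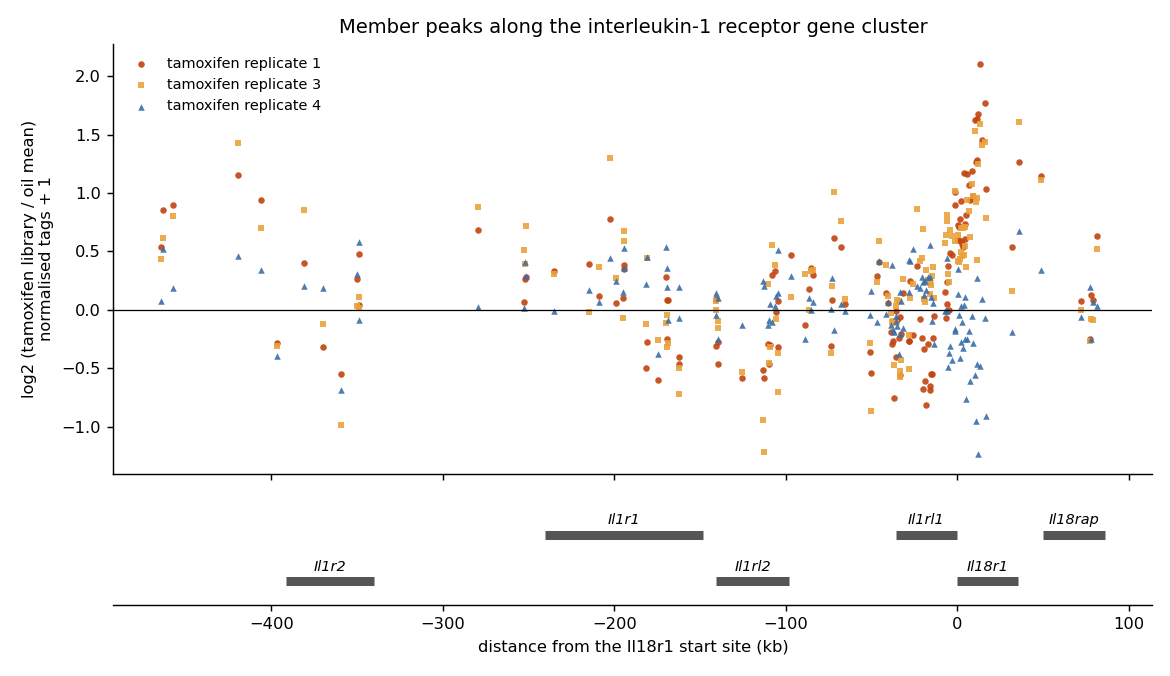
The upper panel plots, for each of the 138 member peaks, the log2 ratio of each tamoxifen library to the mean of the oil libraries (normalised tags + 1) against distance from the Il18r1 start site in kb, and the lower panel draws the 6 genes as bars. Around and downstream of the Il18r1 start site, tamoxifen replicates 1 and 3 lie above 0 while replicate 4 lies mostly at or below 0.

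Il18r1, the IL-18 binding chain, was higher over most of its peaks in tamoxifen replicates 1 and 3 and not in replicate 4. Summed over its 36 peaks, normalised tags were 1887, 1899 and 2186 in oil replicates 1, 2 and 4, and 3467, 3191 and 1763 in tamoxifen replicates 1, 3 and 4. The first 2 tamoxifen libraries stood at 174% and 160% of the oil mean, and the last at 88.5%, below each oil library. As a mean, tamoxifen was 141% ± 46.0 (SD, n = 3) of oil, against an oil SD of 8.51%. Of the 36 peaks 35 had a positive log2 fold change, with a median of 0.50. Yet none (0) passed with all 6 libraries by DESeq2, and 1 passed by edgeR. By DESeq2 at an unadjusted p under 0.05, 12 of the 36 were higher and 0 lower, against 6.18% and 2.84% of all peaks. Oil and tamoxifen libraries were fully separated, with tamoxifen higher, at 2 of these 36 peaks and at 11.8% of all peaks. The counts were 5 of 12 for Il1r2 and 5 of 15 for Il1r1. Separation with tamoxifen lower was seen at 0 peaks of Il18r1, 2 of Il1r2 and 0 of Il1r1, and at 9.99% of all peaks.

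The difference covered a continuous stretch. From 4335 bp upstream to 16146 bp downstream of the nearest start site (chr1:40460870-40482319, 21.4 kb), each of 30 neighbouring peaks was higher in both tamoxifen replicates 1 and 3 than in all oil libraries. This stretch was looked for after the values had been seen and was not tested. Of its 30 peaks 8 were in the tamoxifen peak list alone, so they entered the table only through the group in which they were higher. It opens inside the 3′ part of Il1rl1, which ends just before Il18r1 begins, and runs into the introns of Il18r1. The next longest such run in the cluster held 5 peaks. Across the table, 22506 runs had a median length of 1 peak, and 2 were of 30 peaks or more, this one and one of 54. Over the 30 peaks tamoxifen replicate 1 summed to 183% and replicate 3 to 162% of the oil mean, whereas replicate 4 summed to 87.6%. Replicate 4 lay above all oil libraries at 2 of the 30 peaks and below all of them at 15.

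For comparison, tamoxifen replicates 1 and 3 were both above all oil libraries at 59 members (42.8%) against 21.4% of all peaks within the same distance of a start site, and both below at 21 (15.2%) against 21.8%. Tamoxifen replicate 4 was above all oil libraries at 45 members (32.6%) against 28.4% of those peaks, and below at 30 (21.7%) against 28.5%. Of the 59, Il18r1 held 31 and the other 5 genes 28 of 102.

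**Figure D2:**
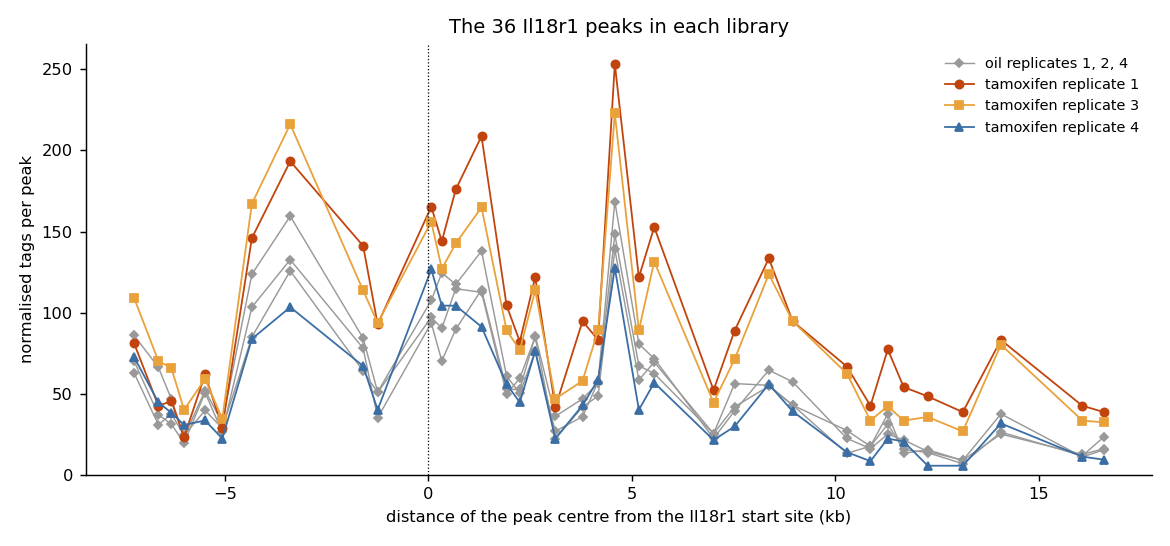
Normalised tags in each of the 36 Il18r1 peaks are plotted against the distance of the peak centre from the Il18r1 start site in kb, with a line per library and a dotted line at the start site. Tamoxifen replicates 1 and 3 run above the 3 oil libraries from about the start site onward, and tamoxifen replicate 4 lies within or below their range at 33 of the 36 peaks, the start site peak being 1 of the 3 exceptions.

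At the Il18r1 start site (chr1:40465519-40465731, sequence above), oil replicates 1, 2 and 4 held 97.1, 93.6 and 108 normalised tags and tamoxifen replicates 1, 3 and 4 held 165, 156 and 127. In this peak all tamoxifen libraries lay above all oil libraries, replicate 4 included. The log2 fold change was 0.58 ± 0.18 (SE, n = 3 per group) with an adjusted p of 0.0737 by DESeq2 and 0.0251 by edgeR. The adjusted p was 0.0334 when promoter-proximal peaks were fitted on their own, and 0.0119 without tamoxifen replicate 4. A neighbouring peak annotated to the same start (chr1:40465783-40465985) held 90.5, 70.2 and 125 tags after oil and 144, 127 and 104 after tamoxifen. There the groups overlapped, with replicate 4 inside the oil range (DESeq2 adjusted p = 0.624). Replicate 4 also lay inside the oil range at the next peak, 220 bp downstream.

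In intron 5 of Il18r1 (chr1:40479486-40479757, 13615 bp downstream), the peak with the AP-1 and ISRE matches held 37.5, 26.3 and 25.1 normalised tags after oil and 83.1, 80.2 and 31.7 after tamoxifen. Tamoxifen replicate 4 lay inside the oil range. The log2 fold change was 1.14 ± 0.35 (SE) with an adjusted p of 0.0647, and 1.48 ± 0.30 (SE) with 0.000176 without that library (DESeq2).

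The Il18r1 peak with the most tags per base, in intron 2 (chr1:40469980-40470289, 4128 bp downstream), held 139, 148 and 168 tags after oil and 253, 223 and 128 after tamoxifen. Here tamoxifen replicate 4 was below all oil libraries. The log2 fold change was 0.40 ± 0.30 (SE, DESeq2 adjusted p = 0.816), and 0.65 ± 0.16 (SE, adjusted p = 0.00346) without that library.

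A weak peak 12677 bp downstream held 8.82, 6.83 and 8.96 tags after oil and 38.7, 26.7 and 5.59 after tamoxifen, the highest log2 fold change of the cluster at 1.52 ± 0.59 (SE, DESeq2 adjusted p = 0.261). Without tamoxifen replicate 4 it was 2.00 ± 0.52 (SE, adjusted p = 0.00633). Of the 36 Il18r1 peaks 10 were in the tamoxifen peak list alone, this weak peak among them. So were 22 of all members (15.9%) against 11.2% of all peaks. Such peaks entered the table only through the tamoxifen group. The peak lists came from the same libraries and add no separate evidence.

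The member that passed with all 6 libraries lay 358 bp past the end of Il18r1 (chr1:40501212-40501899, sequence above), 13807 bp upstream of the start site of Il18rap, which encodes the accessory chain of the IL-18 receptor. It held 55.2, 45.8 and 50.2 normalised tags after oil and 123, 156 and 81.0 after tamoxifen. Each tamoxifen library lay above all oil libraries, with replicate 4 nearest to them. Means were 50.4 ± 4.67 and 119.9 ± 37.6 (SD, n = 3). Its log2 fold change was 1.25 ± 0.25 (SE) with an adjusted p of 0.000191 by DESeq2 and 0.00400 by edgeR. Without tamoxifen replicate 3 the log2 fold change was 1.02 and the adjusted p 0.0619, and without replicate 4 they were 1.47 and 2.11e-07.

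The peak nearest the start site of Il18rap itself (chr1:40514424-40514640, 830 bp upstream) did not reach that start. Its tags were low, with 11.0, 10.7 and 10.8 after oil and 25.1, 24.5 and 14.0 after tamoxifen. The groups did not overlap, and the log2 fold change of 0.96 ± 0.49 (SE) had an adjusted p of 0.541 (DESeq2). This peak was in the tamoxifen peak list alone, so it entered the table only through the group in which it was higher. The peak with the most tags per base of this gene, in intron 11 (29463 bp downstream), held 96.8 to 105 tags after oil and 94.7 to 106 after tamoxifen. The remaining 5 Il18rap peaks had log2 fold changes from -0.08 to 0.43. The summed tags of the 8 peaks stood at 139%, 141% and 112% of the oil mean in tamoxifen replicates 1, 3 and 4.

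**Figure D3:**
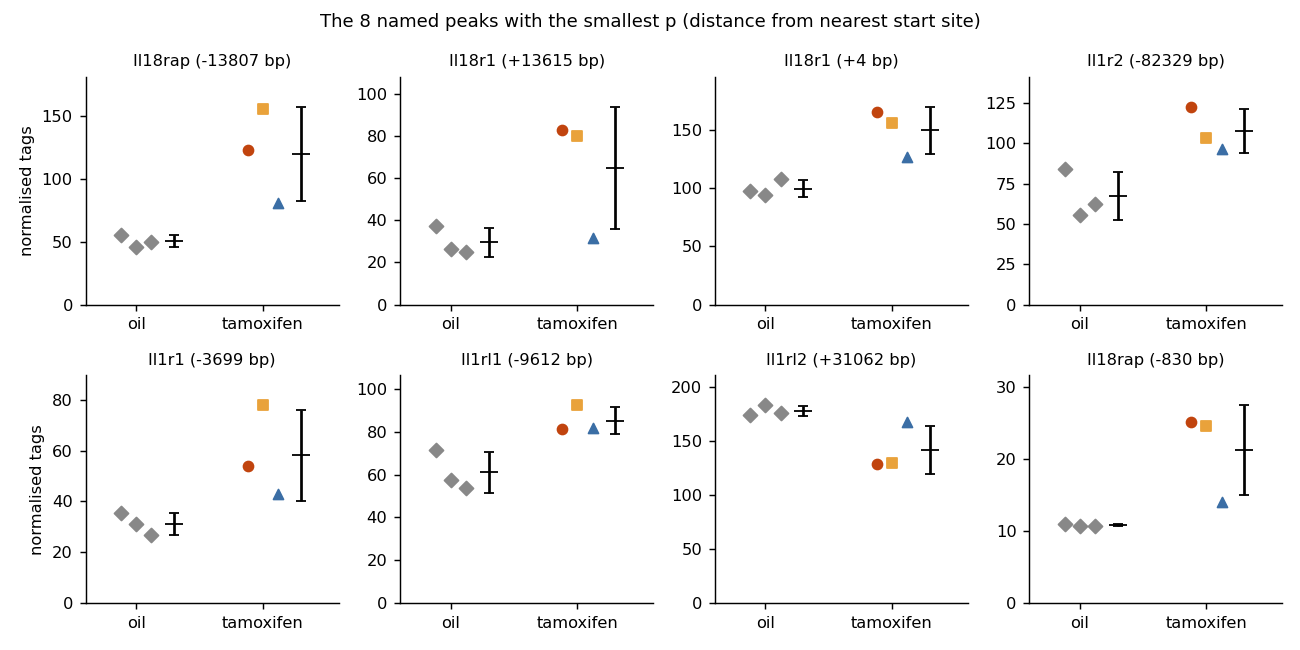
Normalised tags per library are plotted for the 8 named peaks with the smallest p, with the distance from the nearest start site above each panel. Symbols are libraries (grey diamonds oil, circles tamoxifen replicate 1, squares replicate 3, triangles replicate 4) and bars are mean and SD (n = 3). In the panel 13807 bp upstream of Il18rap the tamoxifen libraries hold 81.0 to 156 tags and the oil libraries 45.8 to 55.2.

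Il1rl2, the IL-36 receptor chain, went the other way in tamoxifen replicates 1 and 3. Its 23 peaks summed to 85.0% and 78.5% of the oil mean in these libraries and to 110% in replicate 4, with an oil SD of 1.47%. None (0) of the 23 peaks passed by DESeq2 or edgeR, and 1 was lower at an unadjusted p under 0.05. The median log2 fold change was -0.08.

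The Il1rl2 peak with the most tags per base, in intron 8 (chr1:40352163-40352509, 27747 bp downstream), held 415, 371 and 385 tags after oil and 273, 203 and 464 after tamoxifen. Tamoxifen replicates 1 and 3 lay below all oil libraries, and replicate 4 above them. With all 6 libraries the log2 fold change was -0.32 ± 0.35 (SE, DESeq2 adjusted p = 0.923). Without replicate 4 it was -0.71 ± 0.14 (SE, adjusted p = 3.55e-05). The neighbouring peak 28110 bp downstream had the same order, with 207 to 257 tags after oil and 153, 98.0 and 264 after tamoxifen.

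The Il1rl2 peak with the smallest p (chr1:40355514-40355788) lay 31062 bp downstream in the same intron. It held 174, 183 and 176 tags after oil and 129, 129 and 168 after tamoxifen, and here all tamoxifen libraries were below all oil libraries. Its log2 fold change was -0.32 ± 0.16 (SE, DESeq2 adjusted p = 0.531). At the start site of Il1rl2 (chr1:40324472-40324710) the ranges overlapped, with 90.5 to 95.6 tags after oil and 75.4 to 93.6 after tamoxifen.

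Il1rl1, which encodes the IL-33 receptor ST2, had the most peaks and the most accessible one. Its distal start site (chr1:40429359-40429612, sequence above) held 600, 568 and 518 normalised tags after oil and 557, 575 and 542 after tamoxifen. The groups overlapped, and the log2 fold change was -0.009 ± 0.094 (SE, DESeq2 adjusted p = 0.998). The 95% interval of this difference ran from -0.19 to 0.17. The proximal start site of the same gene (chr1:40439267-40439682), to which a transcript of 8 exons is annotated, held 38.6, 30.2 and 39.4 tags after oil and 30.9, 42.3 and 52.1 after tamoxifen. Per length after oil, the distal start site held 221 tags per 100 bp and the proximal one 8.67.

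Upstream of Il1rl1, the peak at 14347 bp held 252, 191 and 253 tags after oil and 159, 127 and 259 after tamoxifen. It was the 1 Il1rl1 peak lower without tamoxifen replicate 4 (log2 fold change -0.69 ± 0.17 SE, DESeq2 adjusted p = 0.00471). The peak at 49255 bp upstream was higher in that fit, with 395, 392 and 394 tags after oil and 506, 496 and 393 after tamoxifen (0.35 ± 0.10 SE, adjusted p = 0.0262). At both peaks tamoxifen replicate 4 lay close to the oil libraries. The Il1rl1 peak with the smallest p, 9612 bp upstream, held 53.8 to 71.7 tags after oil and 81.2 to 92.5 after tamoxifen, without overlap (log2 fold change 0.49, DESeq2 adjusted p = 0.461). Over all 44 peaks 22 had a positive and 22 a negative log2 fold change, and the sums were 96.7%, 108% and 104% of the oil mean.

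Il1r1, the signalling receptor for IL-1, has 2 annotated start regions here, and the single peak within 3000 bp of a start lay at the downstream one (chr1:40266485-40266724). It held 87.1, 87.8 and 78.8 tags after oil and 88.0, 103 and 101 after tamoxifen. Each tamoxifen library lay above the oil libraries by little, at a log2 fold change of 0.20 ± 0.20 (SE, DESeq2 adjusted p = 0.904). The Il1r1 peak with the smallest p lay in the intron 3699 bp upstream of that start. It held 35.3, 31.2 and 26.9 tags after oil and 54.1, 78.0 and 42.8 after tamoxifen, again without overlap. The log2 fold change was 0.90 ± 0.31 (SE) with an adjusted p of 0.142 by DESeq2 and 0.0395 by edgeR, and 1.09 with 0.0260 by DESeq2 without tamoxifen replicate 4. The most accessible peak per base, 4125 bp downstream, held 163 to 192 tags after oil and 168 to 196 after tamoxifen. Of the 15 peaks 13 had a positive log2 fold change, and the summed tags were 116%, 129% and 116% of the oil mean, so that tamoxifen replicate 4 stood beside replicate 1 in this gene's sum.

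Il1r2, the decoy receptor, had 3 of its 12 peaks 76575 to 83607 bp upstream, inside introns of the neighbouring gene Map4k4. The middle of these (chr1:40002139-40002632) held 83.8, 55.6 and 62.7 tags after oil and 123, 104 and 96.8 after tamoxifen. All tamoxifen libraries were above all oil libraries. The log2 fold change was 0.68 ± 0.22 (SE) with an adjusted p of 0.0941 by DESeq2 and 0.0338 by edgeR, and 0.76 with 0.0422 by DESeq2 without tamoxifen replicate 4. Another Il1r2 peak that passed by edgeR, 38714 bp upstream, held 13.7 to 19.9 tags after oil and 36.7, 44.6 and 22.3 after tamoxifen (adjusted p = 0.0391 by edgeR and 0.194 by DESeq2, and 0.0357 by DESeq2 without tamoxifen replicate 4). That peak was in the tamoxifen peak list alone, so it entered the table only through the group in which it was higher. The Il1r2 start site peak held 25.4 to 34.0 tags after oil and 34.5 to 54.6 after tamoxifen (DESeq2 adjusted p = 0.717). The most accessible peak per base, in intron 5 (30525 bp downstream), held 254 to 278 tags after oil and 249 to 273 after tamoxifen.

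**Figure D4:**
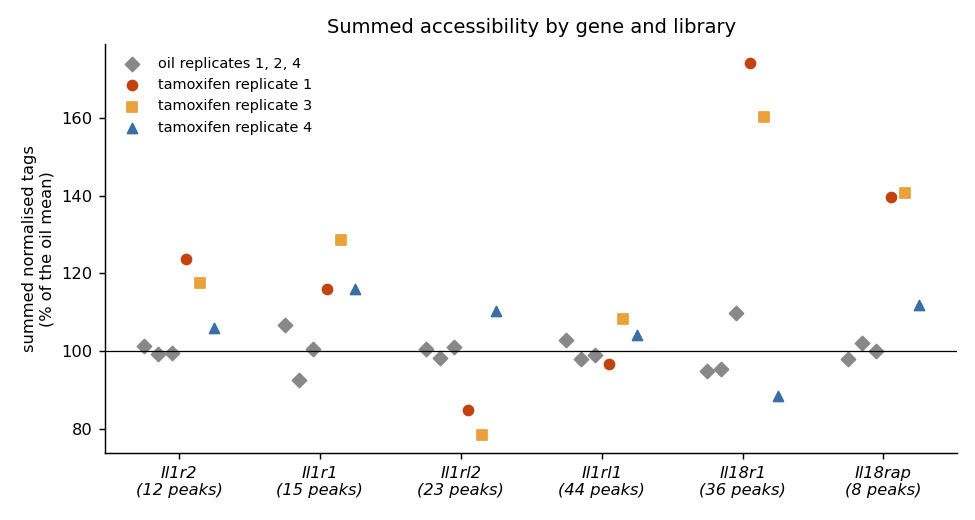
Summed normalised tags of each gene's peaks are plotted per library as a percent of the oil mean (line at 100). For Il18r1 the tamoxifen libraries lie at 174%, 160% and 88.5%, and for Il1rl2 at 85.0%, 78.5% and 110%.

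The level of accessibility in the peak nearest each start site was compared per length. For Il18rap this peak lay 830 bp upstream, did not reach the start, and was in the tamoxifen peak list alone. After oil the order was Il1rl1 with 221 ± 16.3 normalised tags per 100 bp (SD, n = 3), Il18r1 with 46.7 ± 3.40, Il1rl2 with 39.1 ± 1.10, Il1r1 with 35.2 ± 2.07, Il1r2 with 12.2 ± 1.79 and Il18rap with 4.99 ± 0.0779. The oil libraries of neighbours in this order did not overlap. After tamoxifen the means were 220 for Il1rl1 (219.6 ± 6.51), 70.1 ± 9.47 for Il18r1, 36.2 ± 4.06 for Il1rl2, 40.4 ± 3.29 for Il1r1, 17.7 ± 4.31 for Il1r2 and 9.77 ± 2.89 for Il18rap. The values of Il1rl2 and Il1r1 overlapped after tamoxifen.

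**Figure D5:**
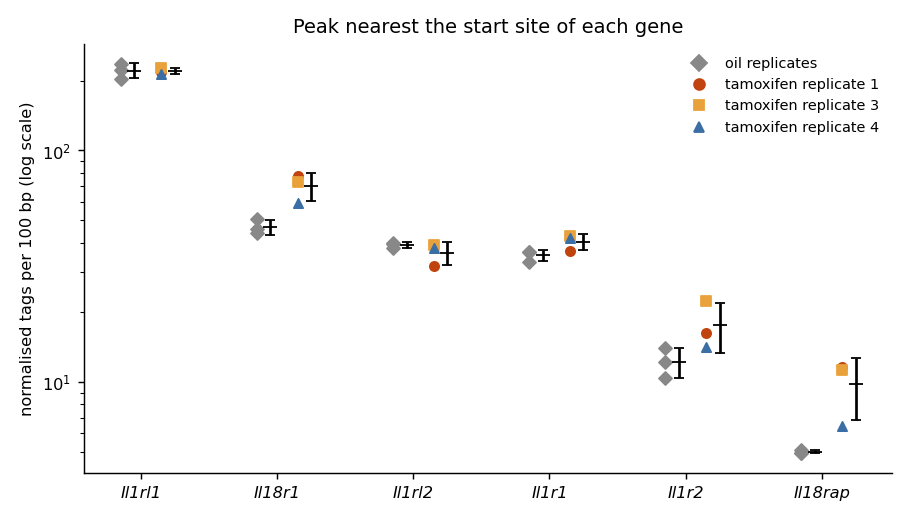
Normalised tags per 100 bp (log scale) in the peak nearest the start site of each gene are plotted per library, with oil on the left and tamoxifen on the right of each gene and bars for mean and SD (n = 3). Il1rl1 lies highest in both groups, at means of 221 and 219.6, and Il18rap lowest, at 4.99 and 9.77.

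Motif letters, which the rule did not use, were counted in the members. In the central 200 bp, 14.5% of the 138 members held a C/EBP match against 6.44% of the 175738 peaks with reference sequence, 10.1% held STAT against 4.85%, 11.6% held AP-1 against 6.61%, and 29 of the 138 held GATA against 15.1%. RUNX was at 17.4% against 18.7%, ISRE at 6.52% against 5.13%, PU.1 at 2.17% against 3.75% and NF-kB at 2.17% against 3.33%. For each motif most members held no match. C/EBP matches were at 11 of the 36 Il18r1 peaks (30.6%) and at 9 of the 102 other members (8.82%). GATA shares ran from 11.1% of the Il18r1 peaks to 33.3% of the Il1r1 peaks, with 30.4% for Il1rl2. These shares are descriptions, and those of NF-kB leave out sites with a longer spacer than the searched letters.

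Other genes of the pathway, from a fixed list, had passing peaks at close to the share of all peaks by DESeq2 with all libraries. Over 4 lists 2 of 189 peaks were higher (1.06% against 1.22% of all peaks) and 0 lower (0.167% of all peaks) by DESeq2. By edgeR 9 of the 189 passed, against 5136 of all 175929 peaks. Without tamoxifen replicate 4, 6 of the 189 were higher and 3 lower by DESeq2, against 2.29% and 1.43% of all peaks. Among ligands and antagonists, 4 of 14 listed names had peaks, and none (0) of their 13 peaks passed. None (0) of the 16 peaks of the accessory chain Il1rap, the inhibitory receptor Sigirr and the IL-18 binding protein Il18bp passed. In the downstream signalling list 1 of 112 peaks rose, in an intron 54562 bp from a start of Traf6, the ubiquitin ligase of the pathway, with 206 to 231 tags after oil and 275 to 354 after tamoxifen (log2 fold change 0.50, DESeq2 adjusted p = 0.0187). Without tamoxifen replicate 4 this was 0.39 with an adjusted p of 0.0944. In the ligand processing list 1 of 48 peaks rose, at the start site of the inflammasome sensor Nlrc4, with 41.2 to 54.6 tags after oil and 76.4 to 105 after tamoxifen (0.91, adjusted p = 0.0161). At an unadjusted p under 0.05, 13 peaks of the 4 lists were higher (6.88% against 6.18% of all peaks) and 5 lower (2.65% against 2.84%).

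Among genes that flank the cluster, 1 of 65 peaks rose (1.54% against 1.22% of all peaks), in intron 4 of Map4k4, with 93.2 to 110 tags after oil and 144 to 170 after tamoxifen (log2 fold change 0.64, DESeq2 adjusted p = 0.0258). Over the 65 flanking peaks the median was 0.05 on the log2 scale.

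Markers were read for the sorted cells and for other cell types that the sample could hold. The start site of Kit, the sorting marker, held 738 to 856 tags in the 6 libraries, and all 7 progenitor markers had peaks. Their sums were 27802 to 28818 after oil and 29523 to 32631 after tamoxifen, which was 12.4%, 15.7% and 4.72% above the oil mean in tamoxifen replicates 1, 3 and 4. The sums over the 138 receptor members were 113.5%, 114.4% and 104.3% of the oil mean in the same libraries. Over the 5 genes without Il18r1 they were 99.5%, 103.9% and 107.9%, and over Il18r1 alone 174%, 160% and 88.5%. Of the 333 progenitor peaks, 255 of them at Runx1, 8 rose (2.40% against 1.22% of all peaks) and 1 fell (0.300% against 0.167%). By DESeq2 at an unadjusted p under 0.05, 43 of the 333 were higher and 3 lower, against 6.18% and 2.84% of all peaks. The start site of Cd34, a progenitor surface marker, rose from 73.9 to 117 tags after oil to 212 to 332 after tamoxifen (log2 fold change 1.50, DESeq2 adjusted p = 8.32e-12). All 10 mast cell and basophil markers had peaks, with sums of 10665 to 11756 after oil and 11934 to 14234 after tamoxifen, and 6 of their 125 peaks rose (4.80% against 1.22% of all peaks), 5 at Hdc and 1 at Cma1. Without tamoxifen replicate 4, 16 of the 125 were higher and 3 lower, against 2.29% and 1.43% of all peaks. With all libraries, 36 of them were higher and 4 lower at an unadjusted p under 0.05 by DESeq2. The mast cell and basophil sums were 10.4%, 28.6% and 7.83% above the oil mean in tamoxifen replicates 1, 3 and 4. For T, NK and innate lymphoid cells 10 of 12 markers had peaks, with sums of 11084 to 11155 after oil and 10759 to 11290 after tamoxifen, and Cd8b1 and Ncr1 had none. Of their 105 peaks 1 rose and 1 fell (0.952% each, against 1.22% and 0.167% of all peaks). The peak that rose was the single one of Cd3d, a chain of the T cell receptor complex, 4851 bp from its start site, with 213 to 231 tags after oil and 329 to 426 after tamoxifen in all 3 libraries (log2 fold change 0.71 ± 0.13 SE, DESeq2 adjusted p = 3.74e-05). The one that fell was at Cd247, which encodes another chain of that complex.

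Sums of the eosinophil list were 1063 to 1132 after oil and 1159 to 1366 after tamoxifen, and those of the mature myeloid list 5763 to 5849 and 6108 to 6199. The B cell sums overlapped, at 1462 to 1558 and 1458 to 1684, and the erythroid sums were lower after tamoxifen, at 13168 to 13562 and 11857 to 12675. Of the 151 erythroid peaks 2 rose and 3 fell (1.32% and 1.99%, against 1.22% and 0.167% of all peaks). By DESeq2 at an unadjusted p under 0.05, 2 were higher and 15 lower, against 6.18% and 2.84% of all peaks. The groups did not overlap at 9 higher and 37 lower erythroid peaks, against 11.8% and 9.99% of all peaks. No peak (0) of the eosinophil, B cell and mature myeloid lists passed by DESeq2, with 2, 2 and 4 higher and 0, 0 and 2 lower at an unadjusted p under 0.05, and 1, 0 and 1 passed by edgeR. The part of these cell types in the receptor peaks was not tested.

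The genes outside the cluster whose summed tags followed the cluster's sum most closely over the 6 libraries were Adm2, Runx1 and Lemd1. The root mean square difference of their log2 sums, centred on oil, was 0.013, 0.017 and 0.017, against a median of 0.135 over 11414 genes with at least 5 peaks. The cluster's own centred log2 sums were 0.18, 0.19 and 0.06 in tamoxifen replicates 1, 3 and 4. In these libraries Il18r1 stood at 174%, 160% and 88.5% of the oil mean. The other 5 genes together stood at 99.5%, 103.9% and 107.9%, so the cluster's sum joins unlike patterns.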

How the data were processed

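ATAC-seq was analysed in 6 libraries (3 oil, 3 tamoxifen). The authors mapped reads to mm10 with Bowtie2, called and merged peaks per group with HOMER, and counted tags per merged peak and library. The deposited values are raw tags, an estimated count in steps of 0.5 per mate, with at most 3 tags per position, which caps strong peaks, and no normalisation. The authors' score per peak, carried over from their peak lists, was not used. Tool versions are not given in the sources used here. Tags were rounded to whole numbers and all 175929 peaks were fitted with DESeq2 1.42.0 (R 4.3.3), a Wald test of tamoxifen against oil with Benjamini-Hochberg adjustment. Quasi-likelihood tests used edgeR 4.0.16 in its robust form. Both were tested on simulated data. Alternatives covered size factors, filters, TSS limits, thresholds and each library left out. Median member peaks held 46.8 to 64.1 normalised tags per library, so counting error was sizeable. Named peaks were, per gene, the peak nearest the TSS, each passing peak or else that with the smallest p, and that with the most tags per base after oil; others were chosen after their values were seen. Gene positions came from GENCODE M21. Members, lists and tests were chosen with earlier results of these data known.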

Additional observations from a re-analysis of the deposited data

How the results depend on the processing

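With all libraries 1 member peak was higher and 0 lower at an adjusted p under 0.05, and 1 was called at a fold over 2. The counts of higher and called peaks were 5 and 2 by edgeR, 4 and 2 at an adjusted p under 0.1, and 2 higher when distal and promoter-proximal peaks were fitted separately. Leaving out single libraries gave 0 to 21 higher, 0 to 3 lower and 0 to 12 called peaks. The 21, 3 and 12 came without tamoxifen replicate 4, and the 0 higher and 0 called without tamoxifen replicate 3. The other pathway and flanking lists had 3 passing peaks, 12 by edgeR, 5 with total mapped tags as size factors, 7 at an adjusted p under 0.1, and 0 to 13 with single libraries left out. Other size factors, filters and TSS limits kept the cluster counts within 1.5 times. The causes were not tested.

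Replicate numbers 1 and 4 occur in both groups, but same-numbered libraries did not deviate together (correlations of -0.04 and 0.05). A fit of these 4 libraries with the replicate number as a block gave 0 higher, 0 lower and 0 called member peaks. It gave 0 passing peaks in the other lists and 52 of 131587 in the whole table. In that fit the peak 13807 bp upstream of Il18rap had a log2 fold change of 0.92. 

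Among the named peaks, 9 of 238 values changed sign, all near 0. The log2 fold change of the Il1r2 intron 5 peak was 0.00121 with total mapped tags as size factors and ran from -0.042 to 0.0298 with single libraries left out. That of the distal Il1rl1 start site was 0.00167 with total mapped tags, 0.0107 in the separate fits and -0.066 to 0.0399 with single libraries left out, and that of the Il18rap intron 11 peak -0.00411 to 0.0744. Depth limits weak peaks such as the one 12677 bp downstream of Il18r1, where oil libraries held 6.83 to 8.96 tags.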
